A study of Mus musculus with 12 samples.

Results

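Metallothioneins and antioxidant enzymes were examined as 10 genes, taken by name from the 24346 gene symbols of the deposited files: Mt1, Mt2, Txn1, Txnrd1, Prdx1, Prdx6, Gpx1, Gpx4, Hmox1 and Srxn1. RNA was sequenced from group 2 innate lymphoid cells (ILC2s), lymphocytes without antigen receptors that release type 2 cytokines, sorted from mouse lung in 12 libraries. The sort took cells that were CD45-positive, lineage-negative, Thy1.2-positive and ST2-positive. Mice were C57BL/6 per the labels and C57BL/6J per the study's methods, which give an age of 7 to 12 weeks; they were wild type (WT) or lacked Sema6d in the whole body, the latter named 6DKO in the labels. Each genotype received PBS or IL-33, an alarmin that activates ILC2s, into the nose for 3 days, with 3 libraries in each of the 4 groups. The labels give 50 ng of IL-33 and the study's methods a higher dose, so the dose is uncertain. Values are FPKM, in which reads are scaled to the length of the gene and the mapped reads of the library, so that levels of different genes can be compared per length. The labels do not say that the libraries of a group came from separate animals, and p-values measure the spread between these libraries.

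Metallothioneins are small cysteine-rich proteins that bind zinc and copper, and their genes respond to metal ions through the factor MTF1. The thioredoxin and glutathione systems pass electrons from NADPH to enzymes that reduce hydrogen peroxide and lipid peroxides, and many of their genes are targets of the factor NRF2. Activated lymphocytes produce reactive oxygen species as their metabolism increases, and these systems keep protein thiols reduced.

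The ILC2 markers were present throughout: of 15 markers, 14 exceeded 1 FPKM in 6DKO PBS replicate 1 and 15 in each other library, and none was listed at 0. Gata3, the lineage-defining factor, lay between 295 and 690.0 FPKM, and Il1rl1, the IL-33 receptor gene, between 117 and 269 FPKM. Sema6d itself measured 27.5, 46.1 and 37.5 FPKM in WT and 29.0, 22.9 and 19.8 FPKM in 6DKO libraries under PBS. Under IL-33 it measured 19.7, 35.5 and 28.7 FPKM in WT and 15.4, 13.6 and 13.8 FPKM in 6DKO libraries. The genotypes overlapped under PBS and did not overlap under IL-33, and neither difference was called by limma (-0.60, adjusted p = 0.463, and -0.89, adjusted p = 1). A value per gene does not show which exons were read, and the deleted stretch is not given in the sources used here, so these levels are no check of the deletion.

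The PBS libraries were less even than the IL-33 libraries. The median SD of log2(FPKM + 1) was 0.66 in WT and 0.70 in 6DKO under PBS, and 0.29 and 0.28 under IL-33. The limma fit used 1 spread per gene for all 4 groups. Its p-values between genotypes under IL-33 therefore also carry the larger PBS spread, and those under PBS the smaller IL-33 spread. In PBS libraries 7696 to 9287 genes passed 1 FPKM, and in IL-33 libraries 9917 to 10081 did. Zeros among the 3617 genes with a mean of 5 to 20 FPKM numbered 169 to 641 per PBS library, against 25 to 50 per IL-33 library. The FPKM files hold no read totals; relative depth, estimated from the step of 1 read in weakly expressed genes, ranged from 0.739 to 0.998 in PBS and from 0.968 to 1.39 in IL-33 libraries. Psmd13, a proteasome subunit gene that every cell uses, was named after its values were seen. It was listed at 0 in WT PBS replicate 2 and lay at 2.79 to 92.6 FPKM in the other PBS libraries. Under IL-33 it stood at 56.2 to 86.6 FPKM. Zeros are reported as the files list them, without a claim that the gene was off.

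6DKO PBS replicate 2 stood apart through genes of other cells. Its 18 lung macrophage markers summed to 263 FPKM, led by Lyz2 at 112 FPKM, against 45.4 to 90.6 FPKM in the other PBS libraries, where Ctss led. Its 12 epithelial markers summed to 281 FPKM, led by Ager at 199 FPKM, against 35.2 to 54.0 FPKM in the other PBS libraries. The macrophage list summed to 233 to 280 FPKM in WT IL-33 libraries and to 256, 686 and 385 FPKM in 6DKO IL-33 libraries. Ctss led that list in each IL-33 library except 6DKO IL-33 replicate 2, where Chil3 led at 394 FPKM; Chil3 was at 83.1 FPKM in replicate 3 of that group. The defining macrophage gene Marco was listed at 0 in the 11 libraries other than 6DKO PBS replicate 2, where it was at 7.28 FPKM. Of the 18 genes, 9 exceeded 1 FPKM in 6DKO PBS replicate 2, 8 in 6DKO IL-33 replicate 2, 7 in 6DKO IL-33 replicate 3 and 2 to 5 in the other libraries. The epithelial list summed to 8.30 to 27.1 FPKM in IL-33 libraries other than 6DKO IL-33 replicate 3, which reached 113 FPKM with Sftpc at 97.2 FPKM. Calls made with all 12 libraries were also computed without the 3 libraries with the most Chil3, Lyz2, Ear2 and Marco (6DKO PBS replicate 2 and 6DKO IL-33 replicates 2 and 3), an alternative chosen after seeing the data; it leaves 1 library in the 6DKO IL-33 group, which is assumed to vary like the other groups.

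Of 7 mast cell and basophil markers, the 6 other than Cpa3 were listed at 0 in all PBS libraries and reached at most 2.99 FPKM (Fcer1a) under IL-33. Cpa3 was at 42.9 to 89.3 FPKM in PBS and 17.8 to 40.0 FPKM in IL-33 libraries. Erythroid markers summed to 12.8 to 45.4 FPKM in PBS and 3.80 to 9.76 FPKM in IL-33 libraries. T and NK cell markers summed to 197 to 483 FPKM, with Cd3g the most abundant in each library. In 6DKO PBS replicate 2 that list held Ncr1 at 58.9, Prf1 at 36.3, Klrd1 at 24.0 and Eomes at 5.47 FPKM, against at most 2.61, 6.99, 4.81 and 0.0316 FPKM in the other libraries. Endothelial markers summed to 2.86 to 65.5 FPKM and mesenchymal markers to at most 45.9 FPKM, both highest in 6DKO PBS replicate 2. B cell markers summed to at most 26.9 FPKM, neutrophil markers to 5.48 to 13.5 FPKM and eosinophil markers to at most 2.07 FPKM. The part of these cells in the results was not tested.

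IL-33 treatment moved 5 of the 10 genes when averaged over the genotypes. By limma with Benjamini-Hochberg adjustment, Mt1, Mt2, Txn1 and Txnrd1 were higher and Prdx6 was lower at an adjusted p under 0.05, against 8.82% of the 11395 genes tested. Higher calls took 4 of the 10 genes against 5.75% of all genes, and lower calls 1 of the 10 against 3.07%. The 10 genes were chosen with earlier results of these data known, so these shares do not test the genes as a set. All 10 genes passed the filter of a mean of 0.5 FPKM, Mt2 only through the IL-33 libraries, so Mt2 had to differ between treatments. Of the 9 others, 4 were called. Hmox1, which was not called, passed the filter only through its value of 6.03 FPKM in 6DKO PBS replicate 2. With no filter, 4 of the 10 (Mt1, Mt2, Txnrd1 and Prdx6) were called by limma, with 687 of all genes higher and 353 lower. The median log2 fold change of the 10 genes was 0.47, against 0.16 for all genes tested. The 6 IL-33 libraries did not overlap the 6 PBS libraries for 5 of the 10 genes, the same 5, against 6.46% of all genes. Within WT alone, 2 of the 10 genes were called, Mt2 and Prdx6, against 4.27% of all genes, and within 6DKO alone 2 of the 10, again Mt2 and Prdx6, against 2.84%. These contrasts share libraries with the averaged one. Log2 fold changes were computed on log2(FPKM + 1), where changes between low values come out too small.

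The counts moved with single libraries, for the 10 genes and for all genes. Averaged over the genotypes, 3 of the 10 genes (Mt1, Mt2 and Prdx6) were called without any one of WT IL-33 replicates 1, 2 and 3 or 6DKO IL-33 replicates 1 and 3, where calls among all genes fell from 1005 to between 660 and 713. In WT, 5 were called without WT PBS replicate 2, where all genes gave 317 higher and 209 lower in place of 303 and 183. In 6DKO 1 (Mt2) was called without 6DKO PBS replicate 1, where all genes gave 294 calls in place of 324, or any one of the 6DKO IL-33 replicates, where they gave 122 to 143. Without the 3 libraries with macrophage genes, 2 (Mt2 and Prdx6) were called in the averaged contrast and 0 in 6DKO by limma, where all genes gave 485 and 31 calls, with averaged estimates of 3.18 for Mt1, 0.53 for Txn1 and 1.07 for Txnrd1. Quantile normalization moved the median of all genes in the averaged contrast from 0.16 to -0.03, and the calls from 655 higher and 350 lower to 521 higher and 506 lower. The 5 called genes kept their directions under it, and Txn1 missed the threshold (limma adjusted p = 0.0520).

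Between the genotypes, none of the 10 genes was called by limma after Benjamini-Hochberg adjustment. Under PBS the count was 0 of 10, against 0.579% of all genes, with 1 of 10 (Srxn1) at an unadjusted p under 0.05 and 1475 of all genes there. Without 6DKO PBS replicate 3, limma called 1 of 10 (Srxn1), and all genes gave 75 higher and 68 lower in place of 38 and 28. Under IL-33 the count was 0 of 10, against 0.00878% of all genes, with 0 of 10 at an unadjusted p under 0.05 and 209 of all genes there. For the interaction of genotype and IL-33 the count was 0 of 10, against 0.0176% of all genes, with 0 of 10 at an unadjusted p under 0.05 and 635 of all genes there. Groups that did not overlap numbered 0 of 10 under PBS, against 8.63% of all genes, and 3 of 10 under IL-33, against 14.2%.

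**Figure D1:**
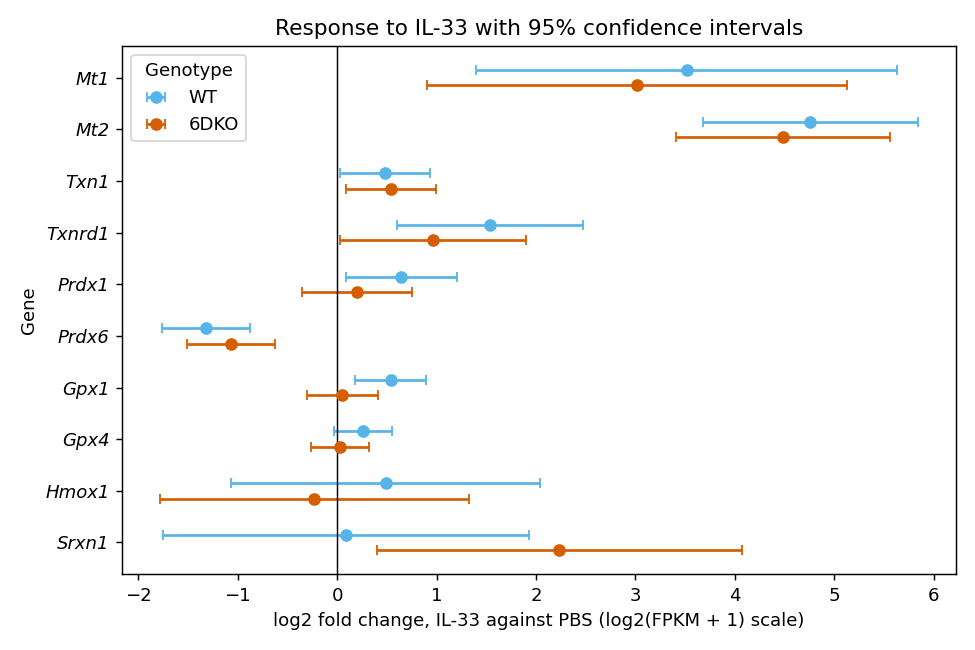
Log2 fold change of IL-33 against PBS on the log2(FPKM + 1) scale (horizontal axis) for each of the 10 genes (vertical axis), in WT (blue) and 6DKO (orange), with points for the limma estimate and bars for its 95% confidence interval, not adjusted for the number of genes. Mt2 (4.76 in WT, 4.48 in 6DKO) and Prdx6 (-1.32 and -1.07) were the genes called in each genotype.

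Mt1 and Mt2 encode the widely expressed metallothioneins. Mt1 measured 27.2, 0.412 and 45.8 FPKM in WT PBS and 14.8, 8.94 and 17.2 FPKM in 6DKO PBS libraries. IL-33 libraries gave 109, 120.5 and 208 FPKM in WT and 122, 101 and 119.8 FPKM in 6DKO libraries. Each IL-33 library lay above each PBS library, and the genotypes overlapped under both treatments. Averaged over the genotypes, Mt1 rose by 3.26 (SE 0.68), adjusted p = 0.0116 by limma with Benjamini-Hochberg adjustment, in 6 of 6 IL-33 libraries above all PBS libraries. Within WT the estimate was 3.51 (SE 0.97) and within 6DKO 3.02 (SE 0.97), neither past the threshold by itself (limma, Benjamini-Hochberg adjusted p = 0.0683 and 0.144). The group means were 24.5 ± 22.8 and 13.7 ± 4.26 FPKM under PBS and 146 ± 53.9 and 114 ± 11.5 FPKM under IL-33 in WT and 6DKO (SD, 3 libraries each). Without WT PBS replicate 2, the lowest value, Mt1 was called in WT (1.95, limma adjusted p = 0.0159) and in 6DKO (3.02, adjusted p = 0.00122); without WT PBS replicate 3 it was called in WT (4.48, adjusted p = 0.0251). Calls were also made in WT under quantile normalization (3.12, limma adjusted p = 0.0427) and array weights (3.03, adjusted p = 0.0402), and in 6DKO with only the groups compared (3.02, adjusted p = 0.0221). Over the 20 alternatives its adjusted p ranged from 0.0159 to 0.245 in WT and from 0.00122 to 0.790 in 6DKO. The averaged call was lost in 1 of 19 alternatives, without the 3 libraries with macrophage genes (3.18). With 1 library left out, the averaged estimate ran from 2.48 to 3.75.

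Mt2 was listed at 0 in all 6 PBS libraries. It measured 25.5, 17.6 and 39.3 FPKM in WT and 11.9, 26.1 and 30.9 FPKM in 6DKO IL-33 libraries. No PBS library held a value above 0, no IL-33 library fell below 11.9 FPKM, and the genotypes overlapped under IL-33. Averaged over the genotypes, the limma log2 change was 4.62 (SE 0.35), adjusted p = 1.27e-05 by Benjamini-Hochberg; within WT it was 4.76 (SE 0.49, adjusted p = 0.000325) and within 6DKO 4.48 (SE 0.49, adjusted p = 0.000786). The 6DKO call was lost without the 3 libraries with macrophage genes (3.69, limma adjusted p = 0.0978). Mt2 passed the filter only through the IL-33 libraries, and a gene that does so has to differ, so these p-values add little to the values themselves. The estimates rest on the pseudocount of 1, and no fold can be given against a group listed at 0. In bulk samples, fewer cells of a type and less RNA per cell cannot be told apart. In GENCODE vM21, on GRCm38, 73.5% of the exon bases of Mt2 are shared with Gm45774, an antisense gene; Gm45774 is not in the files. The labels name the SMART-Seq HT kit and the study's methods a stranded kit, so whether reads kept their strand is uncertain and reads of the Mt2 and Gm45774 genes cannot be told apart.

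Both genes lie on chromosome 8 of GRCm38 on the plus strand, Mt2 at chr8:94172664-94173568 and Mt1 at chr8:94179082-94180327, with 5513 bases between them. Because they rose together, their 250 bases before the RefSeq start are shown (RefSeq, GRCm38.p6, plus strand, 5′ to 3′), Mt1 at chr8:94178839-94179088 and Mt2 at chr8:94172368-94172617. The letters TGCACNC or TGCGCNC, the core of the metal response element that MTF1 binds, were searched on both strands, and capitals mark their matches; a match on the minus strand appears as its reverse complement.
Mt1: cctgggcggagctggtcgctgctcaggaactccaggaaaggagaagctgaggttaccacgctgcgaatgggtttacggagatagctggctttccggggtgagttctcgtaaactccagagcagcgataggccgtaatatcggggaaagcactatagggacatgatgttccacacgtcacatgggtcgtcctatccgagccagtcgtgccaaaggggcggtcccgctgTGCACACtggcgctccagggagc
Mt2: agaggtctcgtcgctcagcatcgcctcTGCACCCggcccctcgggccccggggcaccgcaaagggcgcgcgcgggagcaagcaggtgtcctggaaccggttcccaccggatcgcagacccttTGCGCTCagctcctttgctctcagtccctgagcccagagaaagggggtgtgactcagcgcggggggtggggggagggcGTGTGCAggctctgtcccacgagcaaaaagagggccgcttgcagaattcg
Within these stretches Mt1 held 1 match and Mt2 held 3. Of 32851 promoter windows of the same length, 21.4% held at least 1 such match and 1.26% held 3 or more. TGACNNNGC, the core of the antioxidant response element that NRF2 binds, was found once in Mt2 and in 10.2% of all windows. Among the other genes, Srxn1 held 1 match of TGCGCNC, and TGACNNNGC was present in Prdx1 and in 1 of 3 windows of Txnrd1. Windows were found for 8 of the 10 genes, with none for Prdx6 and Hmox1. A match describes letters in a window and is not evidence of binding. The RefSeq and GENCODE starts differ. The Mt2 stretch ended at 94172617, before its GENCODE start at 94172664, and the Mt1 stretch at 94179088, past its GENCODE start at 94179082. Bases outside the stretches were not searched, so the counts are not all elements of either gene and do not rank Mt1 against Mt2.

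Mt3 and Mt4 are the other metallothionein genes of the list of metallothioneins and zinc handling, in which 4 of 21 tested genes (Mt1, Mt2, Mt3 and Slc30a6) rose and 0 fell averaged over the genotypes by limma, where 5.75% of all genes were called higher. Mt2 and Mt3 passed the filter only through the IL-33 libraries, so this count is not support for a rise of the list. Mt4 was listed at 0 in all 12 libraries. Mt3 was listed at 0 in the 6 PBS libraries. IL-33 libraries gave 2.93, 3.03 and 3.70 FPKM in WT and 0, 3.06 and 0.350 FPKM in 6DKO mice. The limma log2 change was 1.45 (SE 0.34, adjusted p = 0.0220), with 5 of 6 IL-33 libraries above 0, and it missed the threshold without WT IL-33 replicate 3 (adjusted p = 0.0527), under quantile normalization (0.93, adjusted p = 0.0808) and with array weights (1.43, adjusted p = 0.146). Slc30a6, a zinc transporter of the secretory pathway, measured 0, 0 and 1.27 FPKM in WT PBS and 11.8, 14.7 and 9.93 FPKM in 6DKO PBS libraries, with no overlap. Under IL-33 it lay between 6.84 and 14.1 FPKM in both genotypes. It was higher in 6DKO than in WT under PBS by 3.31 (limma, Benjamini-Hochberg adjusted p = 0.0155), the only listed gene called between genotypes. Over 20 alternatives the adjusted p ranged from 0.00476 to 0.525, and 4 lost the call. The call was lost with only the PBS groups in the fit (limma adjusted p = 0.525) and with array weights (3.13, adjusted p = 0.384). The replicate block (adjusted p = 0.0538) and leaving out the 3 libraries with macrophage genes also lost it. The interaction was not called (-3.10, limma adjusted p = 0.314). Without the 3 libraries with macrophage genes the genotype difference was 3.17 (limma adjusted p = 0.111). IL-33 against PBS gave 3.01 in WT (limma adjusted p = 0.00455), -0.10 in 6DKO (adjusted p = 0.961) and 1.45 averaged (adjusted p = 0.0196). The averaged call was lost in 5 of 19 alternatives. It was lost without any one of WT IL-33 replicates 1 and 2 and 6DKO IL-33 replicates 1 and 2 (1.33 to 1.48, limma adjusted p from 0.0501 to 0.0632). It was also lost without the 3 libraries with macrophage genes, where the estimate was 1.48.

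**Figure D2:**
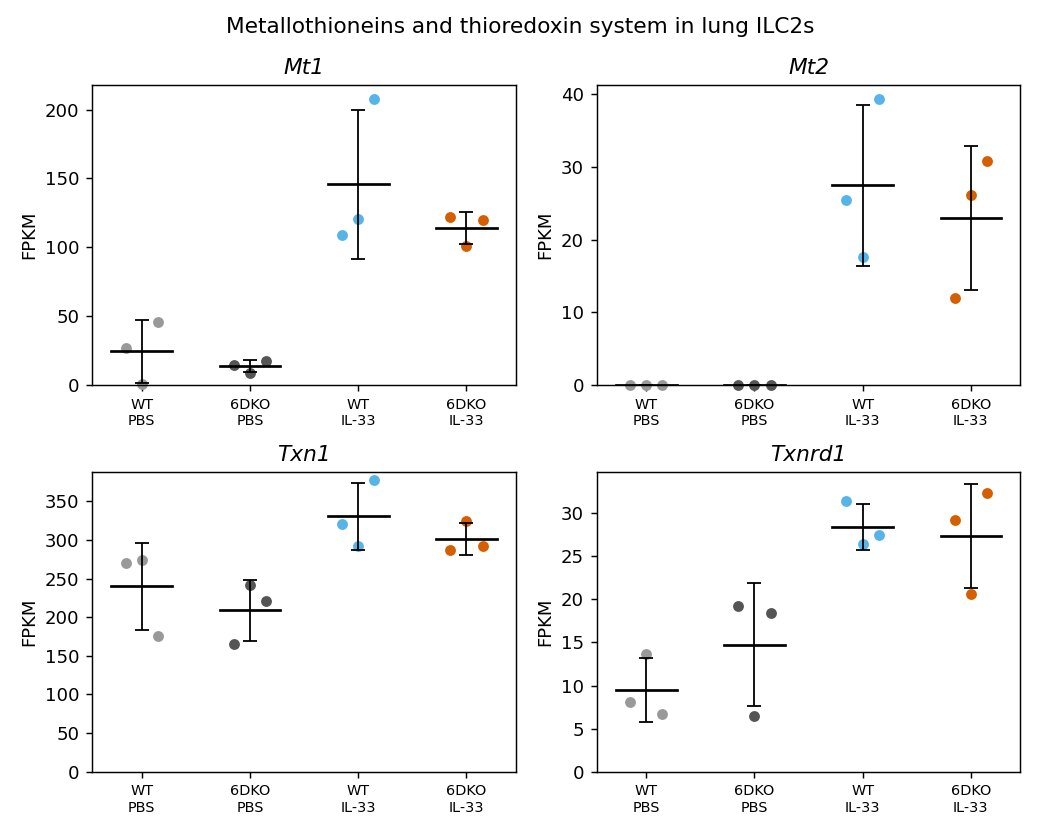
FPKM of Mt1, Mt2, Txn1 and Txnrd1 (vertical axes) in the 4 groups (horizontal axes), with a point for each of 3 libraries, a line for the group mean and bars for 1 SD. Each IL-33 library lies above each PBS library for these 4 genes, with Mt2 listed at 0 under PBS.

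Txn1 encodes cytosolic thioredoxin, which reduces protein disulfides, and Txnrd1 the selenoenzyme that recharges it with NADPH. Txn1 measured 271, 274 and 175 FPKM in WT PBS and 165, 241 and 220.4 FPKM in 6DKO PBS libraries. Under IL-33 it measured 321, 292 and 378 FPKM in WT and 287, 324 and 292 FPKM in 6DKO libraries. The treatments did not overlap, although the highest PBS value (274 FPKM) and the lowest IL-33 value (287 FPKM) were close. Txn1 rose by 0.51 (SE 0.15), at the edge of the threshold (limma, Benjamini-Hochberg adjusted p = 0.0499), in 6 of 6 IL-33 libraries above all PBS libraries. The call was lost without any one of WT PBS replicate 3, 6DKO PBS replicates 1 and 3, WT IL-33 replicates 1, 2 and 3 and 6DKO IL-33 replicates 1, 2 and 3 (adjusted p from 0.0612 to 0.127), and 14 of 19 alternatives lost it (adjusted p from 0.0374 to 0.244 over all 19). Without the 3 libraries with macrophage genes the estimate was 0.53 (limma adjusted p = 0.244).

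Txnrd1 measured 8.11, 13.7 and 6.71 FPKM in WT PBS and 19.2, 6.51 and 18.4 FPKM in 6DKO PBS libraries. IL-33 libraries gave 31.4, 26.4 and 27.4 FPKM in WT and 29.2, 20.6 and 32.3 FPKM in 6DKO libraries. The treatments did not overlap in either genotype, as for 25.1% of all genes tested in WT and 22.7% in 6DKO, and the PBS genotypes overlapped. Txnrd1 rose by 1.25 (SE 0.30) averaged over the genotypes (limma, Benjamini-Hochberg adjusted p = 0.0244). The call was lost without any one of WT IL-33 replicates 1, 2 and 3 or 6DKO IL-33 replicates 1 and 3, where the estimate stayed between 1.19 and 1.27 (adjusted p from 0.0552 to 0.0691); over 19 alternatives the adjusted p ranged from 0.0165 to 0.113, the latter without the 3 libraries with macrophage genes (1.07). Within WT the estimate was 1.54 and within 6DKO 0.96, and neither was called (limma adjusted p = 0.0724 and 0.315); in WT it was called without WT PBS replicate 2 (1.81, adjusted p = 0.0485) and without 6DKO PBS replicate 2 (adjusted p = 0.0194). Without 6DKO PBS replicate 2 the 6DKO estimate was 0.49. Of the 12 genes of the thioredoxin list, Txn1 and Txnrd1 were the 2 called in the averaged contrast, against 8.82% of all genes, and the 10 others had a median log2 fold change of -0.07, against 0.16 for all genes.

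Peroxiredoxins reduce peroxides through a cysteine, and Srxn1 encodes sulfiredoxin, which restores overoxidized peroxiredoxins. Prdx6 encodes a peroxiredoxin with 1 active cysteine that also has phospholipase activity. It measured 1193, 649 and 725 FPKM in WT PBS and 1012, 807 and 740.2 FPKM in 6DKO PBS libraries. Under IL-33 it measured 331, 320.5 and 338 FPKM in WT and 379, 392 and 441 FPKM in 6DKO libraries. Each PBS library lay above each IL-33 library. The group means were 856 ± 294 and 853 ± 142 FPKM under PBS and 329.8 ± 8.94 and 404 ± 32.6 FPKM under IL-33 in WT and 6DKO (SD, 3 libraries each). Prdx6 fell by 1.19 (SE 0.14), the only one of the 10 genes called lower (limma, Benjamini-Hochberg adjusted p = 0.000340), and the call held in all 19 alternatives (adjusted p up to 0.0252). Within WT the log2 fold change was -1.32 (adjusted p = 0.00361), and within 6DKO it was -1.07 (adjusted p = 0.0172), the latter lost when any one of 6DKO PBS replicate 1 or 6DKO IL-33 replicates 1, 2 and 3 was left out (adjusted p from 0.0516 to 0.0783) or the 3 libraries with macrophage genes were (-1.19, adjusted p = 0.303). Under IL-33 each 6DKO library lay above each WT library, by 0.29 (SE 0.20), which was not called (limma adjusted p = 1; exact permutation p = 0.10, two-sided, the smallest that 3 libraries against 3 allow); without the 3 libraries with macrophage genes the difference was 0.20.

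Prdx1 encodes an abundant cytosolic peroxiredoxin. It lay between 134 and 379 FPKM over the 12 libraries, with PBS and IL-33 libraries overlapping, and was not called in any of the 6 contrasts. The averaged estimate was 0.42 (limma adjusted p = 0.186); without WT PBS replicate 2, the highest WT PBS value at 314 FPKM, it was 0.59 (adjusted p = 0.0155), and in WT 0.97 (adjusted p = 0.0187), against an adjusted p of up to 0.466 and 0.450 in the other alternatives. Prdx2, a related cytosolic peroxiredoxin, was at 154 to 239 FPKM in PBS and 256 to 366 FPKM in IL-33 libraries and rose by 0.60 (SE 0.14, limma adjusted p = 0.0230), in 6 of 6 IL-33 libraries above all PBS libraries; the call was lost without any one of WT IL-33 replicates 1 and 3 and 6DKO IL-33 replicate 2 (adjusted p from 0.0631 to 0.0663) and without the 3 libraries with macrophage genes (0.61, adjusted p = 0.178). Of 10 genes in the peroxiredoxin list, 1 rose and 1 fell, where 5.75% of all genes were called higher and 3.07% lower.

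Srxn1 measured 17.2, 9.19 and 16.6 FPKM in WT PBS and 0.0557, 0.0546 and 12.6 FPKM in 6DKO PBS libraries. IL-33 libraries gave 9.54, 24.4 and 13.6 FPKM in WT and 12.5, 10.6 and 9.14 FPKM in 6DKO libraries. A pair of 6DKO PBS libraries was near 0 and the third overlapped the WT range. The difference under PBS was -2.58 (SE 0.84), unadjusted p = 0.00998 and adjusted p = 0.266 by limma, and it was called without 6DKO PBS replicate 3 (-3.81, adjusted p = 0.0103). IL-33 against PBS gave 1.16 (adjusted p = 0.278) averaged over the genotypes, and 1.78 (adjusted p = 0.00814) without that library; within 6DKO it gave 2.23 (adjusted p = 0.222) and 3.47 (adjusted p = 0.00639) without it. Over the alternatives the adjusted p ranged from 0.0103 to 0.927 for the genotypes under PBS and from 0.00814 to 0.671 for the averaged contrast.

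**Figure D3:**
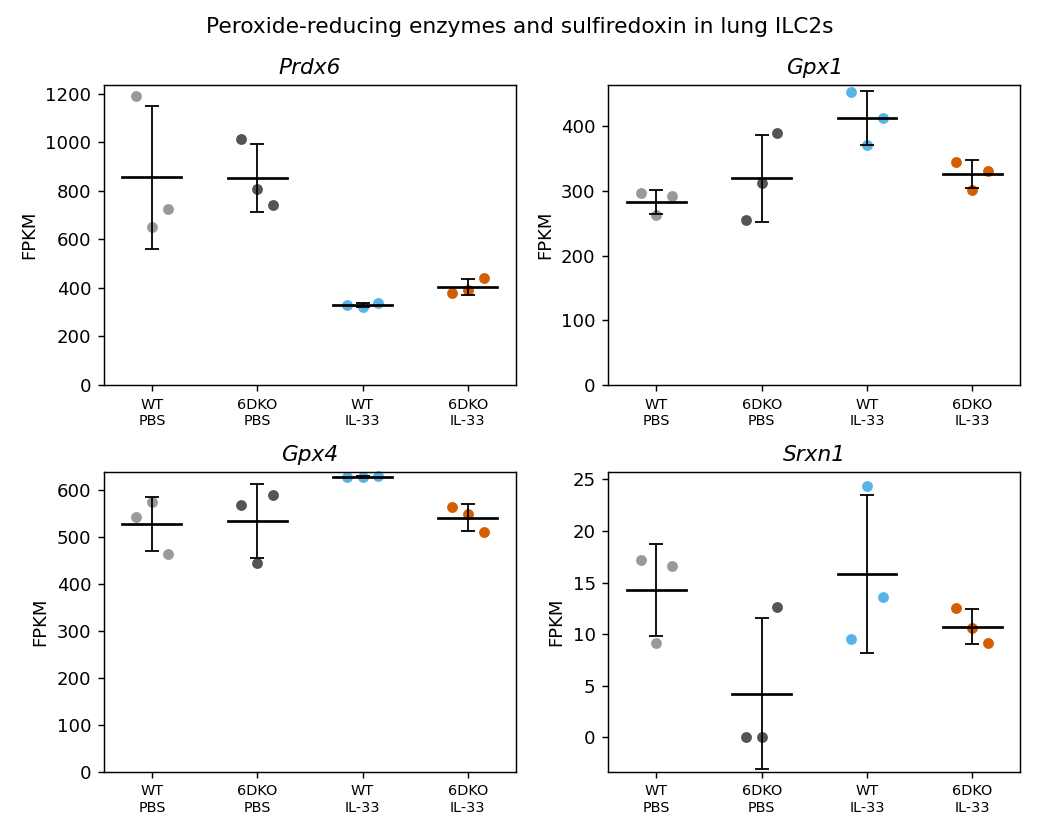
FPKM of Prdx6, Gpx1, Gpx4 and Srxn1 (vertical axes) in the 4 groups (horizontal axes), with a point for each of 3 libraries, a line for the group mean and bars for 1 SD. Prdx6 falls from 649 FPKM or more under PBS to 441 FPKM or less under IL-33, and 6DKO PBS replicate 3 (12.6 FPKM) sets the mean of its group for Srxn1.

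Gpx1 encodes the selenoenzyme glutathione peroxidase of the cytosol, and Gpx4 the one that reduces lipid peroxides in membranes. Gpx1 measured 297, 262 and 292 FPKM in WT PBS and 255, 313 and 390.2 FPKM in 6DKO PBS libraries. Under IL-33 it measured 454, 371 and 413 FPKM in WT and 345, 302 and 331 FPKM in 6DKO libraries. WT libraries did not overlap between treatments, as for 25.1% of all genes tested, and 6DKO libraries did overlap. Under IL-33 each 6DKO library lay below each WT library, where the genotypes did not overlap for 14.2% of all genes. None of these differences was called by limma: IL-33 against PBS was 0.54 in WT (adjusted p = 0.0987), 0.05 in 6DKO (adjusted p = 0.930) and 0.29 averaged (adjusted p = 0.152). The genotype difference under IL-33 was -0.34 (SE 0.16, adjusted p = 1; exact permutation p = 0.10), and the interaction was -0.49 (adjusted p = 0.893). Without 6DKO PBS replicate 1, Gpx1 was called in WT (adjusted p = 0.0417), and without 6DKO PBS replicate 3 it was called in the averaged contrast (0.37, adjusted p = 0.0474). Over the alternatives the adjusted p ranged from 0.0417 to 0.312 in WT and from 0.0474 to 0.384 in the averaged contrast.

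Gpx4 had a coefficient of variation of 11.5% over the 6 PBS and 8.73% over the 6 IL-33 libraries, the lowest of the 10 genes under either treatment. It measured 542, 575 and 464 FPKM in WT PBS and 566, 445 and 589 FPKM in 6DKO PBS libraries. IL-33 libraries gave 627, 627 and 629 FPKM in WT and 564, 548 and 509 FPKM in 6DKO libraries. Each WT IL-33 library lay above each of the 9 others, whose highest value was 589 FPKM. Within WT, the treatments did not overlap for 25.1% of all genes tested. IL-33 against PBS was not called in WT (0.26, limma adjusted p = 0.362) or in 6DKO (0.03, adjusted p = 0.958). The genotype difference under IL-33 was -0.22 (SE 0.13, limma adjusted p = 1; exact permutation p = 0.10), with no overlap. Of 5 tested genes in the glutathione peroxidase list, 0 were called by limma in the averaged contrast, against 8.82% of all genes, and 1 had an unadjusted p under 0.05, as had 2592 of the 11395 genes tested. Their median log2 fold change was 0.14, against 0.16 for all genes. Reads of Gpx4, Prdx1 and Txn1 are uncertain: stretches of at least 75 bases with at least 95% identity occur in 2, 4 and 1 other genes, of which 2, 2 and 1 are pseudogenes, and Prdx6 shares one with Prdx6b, listed at 0 in all 12 libraries.

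Hmox1 encodes heme oxygenase, which opens the heme ring. It was listed at 0 in all WT PBS libraries, and 6DKO PBS libraries gave 0, 6.03 and 0 FPKM. Under IL-33 it measured 1.22, 0.244 and 0 FPKM in WT and 0.479, 1.94 and 0 FPKM in 6DKO libraries. The only PBS value above 0 was in 6DKO PBS replicate 2, the library with macrophage and epithelial markers. Hmox1 was not called in any contrast, and the averaged estimate was 0.13 (SE 0.50, limma adjusted p = 0.910). Of the 16 heme and iron genes, 0 were called by limma in the averaged contrast, against 8.82% of all genes, and 6 had an unadjusted p under 0.05, as had 2592 of the 11395 genes tested.

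In GENCODE vM21 on GRCm38, the other 8 genes lie at chr4:57943373-57956411 (Txn1, minus strand), chr10:82833951-82897712 (Txnrd1, plus strand), chr4:116685544-116700822 (Prdx1, plus strand), chr1:161240112-161251219 (Prdx6, minus strand), chr9:108338903-108340343 (Gpx1, plus strand), chr10:80047166-80056439 (Gpx4, plus strand), chr2:152105516-152111376 (Srxn1, plus strand) and chr8:75093621-75100589 (Hmox1, plus strand).

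The order of the mean levels per length differed between treatments. Over the 6 PBS libraries it was Prdx6 (854 FPKM), Gpx4 (530.1 FPKM), Gpx1 (302 FPKM), Prdx1 (252 FPKM), Txn1 (225 FPKM), Mt1 (19.1 FPKM), Txnrd1 (12.1 FPKM), Srxn1 (9.29 FPKM), Hmox1 (above 0 in 1 library) and Mt2 (listed at 0). Neighbours in that order overlapped over libraries except Prdx6 and Gpx4, Gpx4 and Gpx1, and Txn1 and Mt1. Over the 6 IL-33 libraries it was Gpx4 (584 FPKM), Gpx1 (369 FPKM), Prdx6 (367 FPKM), Prdx1 (324 FPKM), Txn1 (316 FPKM), Mt1 (129.9 FPKM), Txnrd1 (27.9 FPKM), Mt2 (25.2 FPKM), Srxn1 (13.3 FPKM) and Hmox1 (0.647 FPKM). In WT IL-33 libraries Gpx1 (371 to 454 FPKM) lay above Prdx6 (320.5 to 338 FPKM), and in 6DKO IL-33 libraries Prdx6 (379 to 441 FPKM) lay above Gpx1 (302 to 345 FPKM). The other neighbours overlapped except Gpx4 and Gpx1, Txn1 and Mt1, Mt1 and Txnrd1, and Srxn1 and Hmox1.

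Other redox genes were counted by list. In 130 tested listed genes besides the 10, 6 rose and 4 fell averaged over the genotypes by limma, where 5.75% of all genes tested were called higher and 3.07% lower, with a median log2 fold change of 0.16, against 0.16 for all genes tested. Mt3 and Selm, 2 of the 6, passed the filter only through the IL-33 libraries. By limma, the glutathione synthesis list had 0 of 13 called (2 at an unadjusted p under 0.05), the superoxide dismutase and catalase list 0 of 5 (0 at that p) and the NADPH oxidase list 0 of 6 (0 at that p). In the glutathione S-transferase list, 1 of 15 rose and 1 fell: Gstt2 by 2.44 (limma adjusted p = 0.0188) and Gsto1 by -0.88 (adjusted p = 0.0281). The NRF2 target list had 2 of 21 higher, Txnrd1 and G6pdx, the latter encoding the first enzyme of the pentose phosphate pathway that makes NADPH (1.09, limma adjusted p = 0.0237). Of 10 NRF2 regulators, 1 fell, Bach2, a repressor of antioxidant response elements (-1.22, limma adjusted p = 0.0384). In the selenoprotein list, 2 of 25 rose and 2 fell: Txnrd1 and Selm (Selenom, 3.29, adjusted p = 0.000285) were higher, and Sepp1 (Selenop, -1.11, adjusted p = 0.00794) and Selk (Selenok, -0.51, adjusted p = 0.00151) were lower by limma. PBS and IL-33 libraries did not overlap for Bach2, Selm, Sepp1 and Selk and overlapped for Gstt2, Gsto1 and G6pdx. Selk kept its call in all 19 alternatives. Selm did too, but it had to differ to pass the filter, so its calls add little to its values. With 1 library left out, the highest limma adjusted p was 0.0562 for Gstt2 (without 6DKO IL-33 replicate 2), 0.0764 for Gsto1 (without 6DKO IL-33 replicate 2), 0.107 for Bach2 (without WT IL-33 replicate 2) and 0.0735 for G6pdx (without 6DKO IL-33 replicate 2). Calls were lost in 3 of 19 alternatives for Gstt2, 8 for Gsto1, 10 for Bach2, 5 for G6pdx and 1 for Sepp1. Without the 3 libraries with macrophage genes, the calls of 5 of these genes were lost. Their log2 fold changes there were 2.86 for Gstt2, -1.03 for Gsto1, -1.19 for Bach2, 1.14 for G6pdx and -1.31 for Sepp1.

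The genes of most like pattern were found by the root-mean-square difference of centred log2(FPKM + 1) over 12 libraries. For Mt1 they were Mthfd2 (0.84), Lgals3 (0.84) and Cisd3 (0.88). For Mt2 they were Dpp7 (0.53), Ube2c (0.62) and Slc15a3 (0.63), for Prdx6 Usp38 (0.14), Ier2 (0.17) and Vps37b (0.17), and for Txnrd1 Bin1 (0.32), Hccs (0.37) and Mrpl39 (0.39). For Txn1 they were Arhgdib (0.14), Higd2a (0.15) and Eif3h (0.17), and for Prdx1 Srp14 (0.16), Atp5f1 (0.17) and Skp1a (0.20). Gpx1 was nearest Gltp (0.11), Cox6b1 (0.12) and Pgls (0.13), and Gpx4 nearest Rpl7 (0.08), Eef1a1 (0.10) and Rpl41 (0.12). Genes near Srxn1 included Aars (0.41) and Mvk (0.54), and Hmox1 was nearest Rtkn (0.19), Sod3 (0.29) and Chst14 (0.30), which had their highest values in 6DKO PBS replicate 2.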

How the data were processed

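RNA of sorted lung ILC2s was sequenced in 12 libraries, grouped by the labels. The authors deposited FPKM values per gene symbol, mapped to mm10 (GRCm38): the submitters' processing notes name TopHat2 2.1.1 and Cuffdiff 2.2.1, the study's methods another TopHat release and Cuffnorm 2.2.1, and the annotation is not given in the sources used here. Read totals are unknown, so no counting intervals are given. From the FPKM values, log2(FPKM + 1) was fitted, for 11395 genes averaging 0.5 FPKM or more, with limma 3.58.1 (R 4.3.3; eBayes with a trend) as 4 group means over 12 libraries, with 6 contrasts, two-sided p-values and Benjamini-Hochberg adjustment. Single genes were also compared by two-sided exact permutation tests. The fit was also tested on simulated data, and no outcome of that test is used here. The members and lists were chosen with earlier results of these data known. Named were the 10 genes, from each list up to 4 other genes called in the averaged contrast by largest change, any listed gene called between genotypes or for the interaction, and for each of the 10 up to 3 genes of most like pattern. Of the list symbols, 10 selenoprotein symbols were matched through RefSeq synonyms. Alternatives were a pseudocount of 0.1, no filter, quantile normalization, median ratio scaling, array weights, a replicate block, only the groups compared, and leaving out each library; leaving out 3 libraries with macrophage genes was added after seeing the data.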

Additional observations from a re-analysis of the deposited data

How the results depend on the processing

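Of 1390 log2 fold changes of single genes under the alternatives, 1259 kept their direction and side of the threshold, 70 missed it, 15 passed it and 46 reversed, none of the reversed ones called; the cause was not tested. With each library left out in turn, the 10 genes gave 2 to 5 calls in WT, 1 to 3 in 6DKO, 3 to 6 averaged and 0 to 1 for the genotypes under PBS, and all genes gave 202 to 691, 122 to 476, 660 to 1244 and 20 to 213, with 0 to 3 for the genotypes under IL-33 and 0 to 25 for the interaction. Without the 3 libraries with macrophage genes, chosen after seeing the data and leaving 1 library in 6DKO IL-33 assumed to vary like the other groups, the 10 genes gave 0 calls in 6DKO and 2 averaged, and all genes 31 in 6DKO, 485 averaged, 10 under PBS, 21 under IL-33 and 14 for the interaction. Genes called between genotypes under PBS numbered 33 with no filter, 36 with quantile normalization and 1 each with array weights and only the groups compared; under IL-33 2 with pseudocount 0.1, 0 with quantile normalization, 55 with array weights and 0 with only the groups compared; and for the interaction 5 with pseudocount 0.1. With the replicate block, 15 were called under PBS and 1 for the interaction. After centring within groups, same-number libraries correlated at -0.0468 to 0.0448 and other pairs of different groups at -0.0731 to 0.0530. The numbers thus gave no sign of pairing, but correlations of such uneven libraries cannot exclude it.

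Reversed values in WT were -0.00716 for Hmox1 (quantile). In 6DKO they were -0.0245 for Gpx1 (array weights), -0.0344 for Gpx4 and 0.56 for Hmox1 (without the 3 libraries) and 0.32 for Hmox1 (pseudocount 0.1), and averaged -0.33 for Hmox1 (quantile). Between genotypes they were -0.21 (quantile) and -0.25 (array weights) for Mt1 and -0.00714 for Prdx6 (array weights) under PBS, and 0.0435 for Txnrd1 (without the 3 libraries) under IL-33. For the interaction they were -0.0623 for Txn1 (array weights) and 0.0764 for Hmox1 (without the 3 libraries). With 1 library left out, some log2 fold changes changed sign. In WT they ran from -0.26 to 0.38 for Srxn1. In 6DKO they ran from -0.10 to 0.20 for Gpx1, -0.10 to 0.11 for Gpx4 and -0.70 to 0.71 for Hmox1. Averaged they ran from -0.11 to 0.60 for Hmox1. Between genotypes under PBS they ran from -1.36 to 1.17 for Mt1, -0.14 to 0.30 for Prdx6, -0.00378 to 0.30 for Gpx1 and -0.0763 to 0.14 for Gpx4. Between genotypes under IL-33 they ran from -0.55 to 0.12 for Mt2, -0.20 to 0.11 for Txnrd1 and -0.21 to 0.57 for Hmox1. For the interaction they ran from -1.46 to 1.06 for Mt1, -0.55 to 0.12 for Mt2, -0.10 to 0.27 for Txn1, -0.0110 to 0.43 for Prdx6 and -1.19 to 0.22 for Hmox1.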
